A study of Mus musculus with 18 samples.

Results

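The genes described here encode the proteins of the sarcomere, the contractile unit of striated muscle, and their smooth muscle and non-muscle relatives. Members were taken by annotated symbol: myosin heavy and light chains (Myh, Myl), myosin-binding proteins (Mybp), myozenins (Myoz), myomesins (Myom), tropomyosins (Tpm), α-actinins (Actn), the troponins and 11 named genes that include the actins Acta1, Acta2, Actc1 and Actg2, titin (Ttn) and nebulin (Neb). The rule took 148 probes for 63 genes, of 34885 probes with 1 symbol for 19057 genes on the array. Of the 63 genes, 56 had a probe that was detected on all 3 arrays of at least 1 group, and these were tested. The other 7 were Myh15, Myl7, Mylk3, Mybpc3, Mybphl, Tnni3 and Tnni3k, which include atrial and cardiac isoforms, and their brightest probes lay between 4.26 and 5.26 on the log2 scale on all 18 arrays. Because a gene could pass the filter through the group in which it was high, the 56 are not described as all members. The role called matched by name only held Myl10, Mylip and Tpmt among the tested genes, and Mybphl and Tnni3k among the others. Myl10 is named as a myosin light chain and was placed there by the role list, whereas Mylip and Tpmt were matched by spelling alone. Mylip encodes a ubiquitin ligase and Tpmt encodes thiopurine methyltransferase.

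The study measured total RNA of 18 mouse samples on Illumina bead arrays, 1 array per sample. Per the labels, CD110+ cells were taken with magnetic beads from colon tumours of 3 mice, numbered 1, 5 and 7 and called FAK, of the C57Bl/6 strain and aged 17 weeks. All 3 mice carried Fapbl-Cre and an Apc2lox14/+ allele, and a further allele in the labels is not named here. All cells were maintained with Dox, and each mouse gave 3 samples kept for 24 h with U73122 at 1 µM (treated) and 3 kept without it (untreated). U73122, a compound in common use to inhibit phospholipase C, defines the comparison that the series sets out to make. Per the labels each number stands for 1 mouse, so differences between labels do not compare populations of mice. Whether the 3 replicates of a group were grown separately is not stated in the labels. P-values therefore reflect the spread among these arrays only. Under labels 1 and 5, arrays with Xist and arrays with a Y-linked transcript carried the same number, as given below. This goes against 1 mouse per label there, and the spread may be one between animals, whereas under label 7 it may be technical. The arrays with the Y-linked transcript under labels 1 and 5 were all untreated, so this difference is partly confounded with treatment.

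Thick filaments of the sarcomere are built from myosin heavy chains with their light chains, and thin filaments from actin, tropomyosin and the troponin complex, whose calcium-binding subunit releases the filament for contraction. Z-discs hold the thin filaments through α-actinin, M-bands hold the thick filaments through myomesin, and titin spans from one to the other. Most of these proteins come as families in which 1 gene serves fast skeletal fibres, another slow fibres or the heart, and others smooth muscle or the cytoskeleton of non-muscle cells, so that the set of isoforms is characteristic of a tissue.

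Levels are normalized log2 signals, and a probe was called detected at a detection p under 0.05. The lowest signal among detected probes lay between 4.68 and 4.99 on the 18 arrays, and values near or below it are at background. The labelled source was checked against marker genes outside the families. Epcam, which marks epithelial cells, was detected on none of the 18 arrays. Of 8 colon epithelium markers, 1 was found on all 6 arrays under label 1, 1 under label 5 and 3 under label 7. Of 12 skeletal muscle markers outside the rule, 12 were found on all 6 arrays under label 5, 4 under label 1 and 2 under label 7. Label 1 carried 4 of 6 brown fat markers on all 6 arrays, with the uncoupling protein Ucp1 between 12.35 and 13.85, and label 7 carried 6 of 7 liver markers, with the plasma protein hemopexin (Hpx) between 14.44 and 14.69. The markers on the arrays thus went against the label of colon tumour cells, and the arrays are named by their labels only. Xist, the transcript of the inactive X chromosome, lay between 9.80 and 10.57 on all treated arrays of labels 1 and 5 and on their untreated replicate 2, whereas untreated replicates 1 and 3 of both labels carried the Y-linked Eif2s3y at 9.73 to 10.21 with Xist near background. All 6 arrays of label 7 carried Eif2s3y, at 8.14 to 8.50. The counts of members called for treatment under labels 1 and 5, and for its difference between labels, are therefore given with and without the 4 untreated arrays that carried Eif2s3y. Other values include those arrays. The members called between labels 5 and 7, 1 and 7, and 5 and 1 numbered 55, 48 and 52 of 56 with them. Of all genes, 80.5%, 75.7% and 60.7% were called there. The fit without them leaves 1 untreated array under labels 1 and 5, and its counts between labels are not given. These are bulk samples, in which fewer cells of a type and less RNA per cell cannot be told apart.

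The promoters of 4 members with large differences described later are shown first. Whether these promoters bear on the differences was not tested. Each window, from RefSeq (GRCm38.p6), holds 250 bases before and 50 after the annotated start, 5′ to 3′ on the gene's strand. Capitals mark any match, on either strand, to the TATA box (TATAAA), the E-box (CANNTG), the M-CAT element (CATTCC), the CArG box or the MEF2 site.
Acta1, skeletal α-actin, chr8:123894726-123895025, minus strand: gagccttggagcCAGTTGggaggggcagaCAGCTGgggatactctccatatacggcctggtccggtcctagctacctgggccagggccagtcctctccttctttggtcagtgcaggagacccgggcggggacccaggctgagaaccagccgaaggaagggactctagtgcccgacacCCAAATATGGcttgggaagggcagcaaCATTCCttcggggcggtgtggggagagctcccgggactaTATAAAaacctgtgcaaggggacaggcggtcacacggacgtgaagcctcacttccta
Actc1, cardiac α-actin, chr2:114052826-114053125, minus strand: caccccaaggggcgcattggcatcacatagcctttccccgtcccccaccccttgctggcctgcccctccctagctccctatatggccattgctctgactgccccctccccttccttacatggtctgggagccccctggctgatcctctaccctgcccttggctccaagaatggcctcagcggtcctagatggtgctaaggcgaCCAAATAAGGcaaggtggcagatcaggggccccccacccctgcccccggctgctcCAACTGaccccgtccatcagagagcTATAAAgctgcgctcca
Myh4, the fast IIb myosin heavy chain, chr11:67237562-67237861, plus strand: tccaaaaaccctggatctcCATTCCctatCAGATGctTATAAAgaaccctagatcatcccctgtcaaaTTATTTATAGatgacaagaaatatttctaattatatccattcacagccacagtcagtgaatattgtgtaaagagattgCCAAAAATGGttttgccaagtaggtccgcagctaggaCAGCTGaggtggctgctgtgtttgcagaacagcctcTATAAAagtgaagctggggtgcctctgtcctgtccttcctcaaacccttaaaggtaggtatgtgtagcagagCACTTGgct
Myl1, the fast essential light chain, chr1:66945007-66945306, minus strand: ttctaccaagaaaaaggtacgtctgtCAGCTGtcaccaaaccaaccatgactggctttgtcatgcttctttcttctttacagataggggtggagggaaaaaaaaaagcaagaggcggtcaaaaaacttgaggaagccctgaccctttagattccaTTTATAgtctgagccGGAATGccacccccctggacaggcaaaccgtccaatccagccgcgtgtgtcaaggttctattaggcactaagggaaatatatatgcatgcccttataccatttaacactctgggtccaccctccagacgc
A CArG box, the site known for serum response factor, stood at bases -73 to -64 of Acta1 (CCAAATATGG), -47 to -38 of Actc1 (CCAAATAAGG) and -104 to -95 of Myh4 (CCAAAAATGG), counted from the start. Myh4 also held a MEF2 site at -182 to -173 (TTATTTATAG), which overlaps a TATA box match on the other strand. The Myl1 window held neither of these motifs. TATA box matches lay at -7 to -2 in Acta1 and at 34 to 39, after the annotated start, in Actc1. All positions therefore hold for the annotated start only. Of the 63 members, 52 had a window, and the 38 windows of 33 striated muscle members (fast, slow or cardiac, developmental and shared components) held a CArG box in 21.1% of cases, against 1.63% of all 32851 windows of 27025 genes. Corresponding shares were 18.4% against 3.19% for the MEF2 site, 34.2% against 14.7% for M-CAT, 26.3% against 13.6% for the TATA box and 89.5% against 72.3% for the E-box. Among 11 windows of non-muscle members, 9.09% (1 window) held a CArG box and 0 held a MEF2 site. The E-box stood in 90.9% of these windows, M-CAT in 27.3% and the TATA box in 9.09%. The E-box share was thus no lower than in the striated windows. These matches describe the letters in the windows and no binding was measured.

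The families were first described across the labels, where the differences were widest. Under label 5 the striated muscle isoforms were among the brightest signals on the arrays, under label 7 most were at background, and under label 1 they ranged between these levels from array to array. All 56 tested genes were detected on all 6 arrays of label 5. Under label 1, 26 were detected on all 6 arrays, and under label 7, 19 were, while 30 were detected on none. Counting all 63 members, 56 to 58 were detected per array under label 5 and 19 to 24 under label 7. The range under label 1 was wider, with 50 to 56 on treated arrays and 29, 53 and 39 on untreated replicates 1, 2 and 3.

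**Figure D1:**
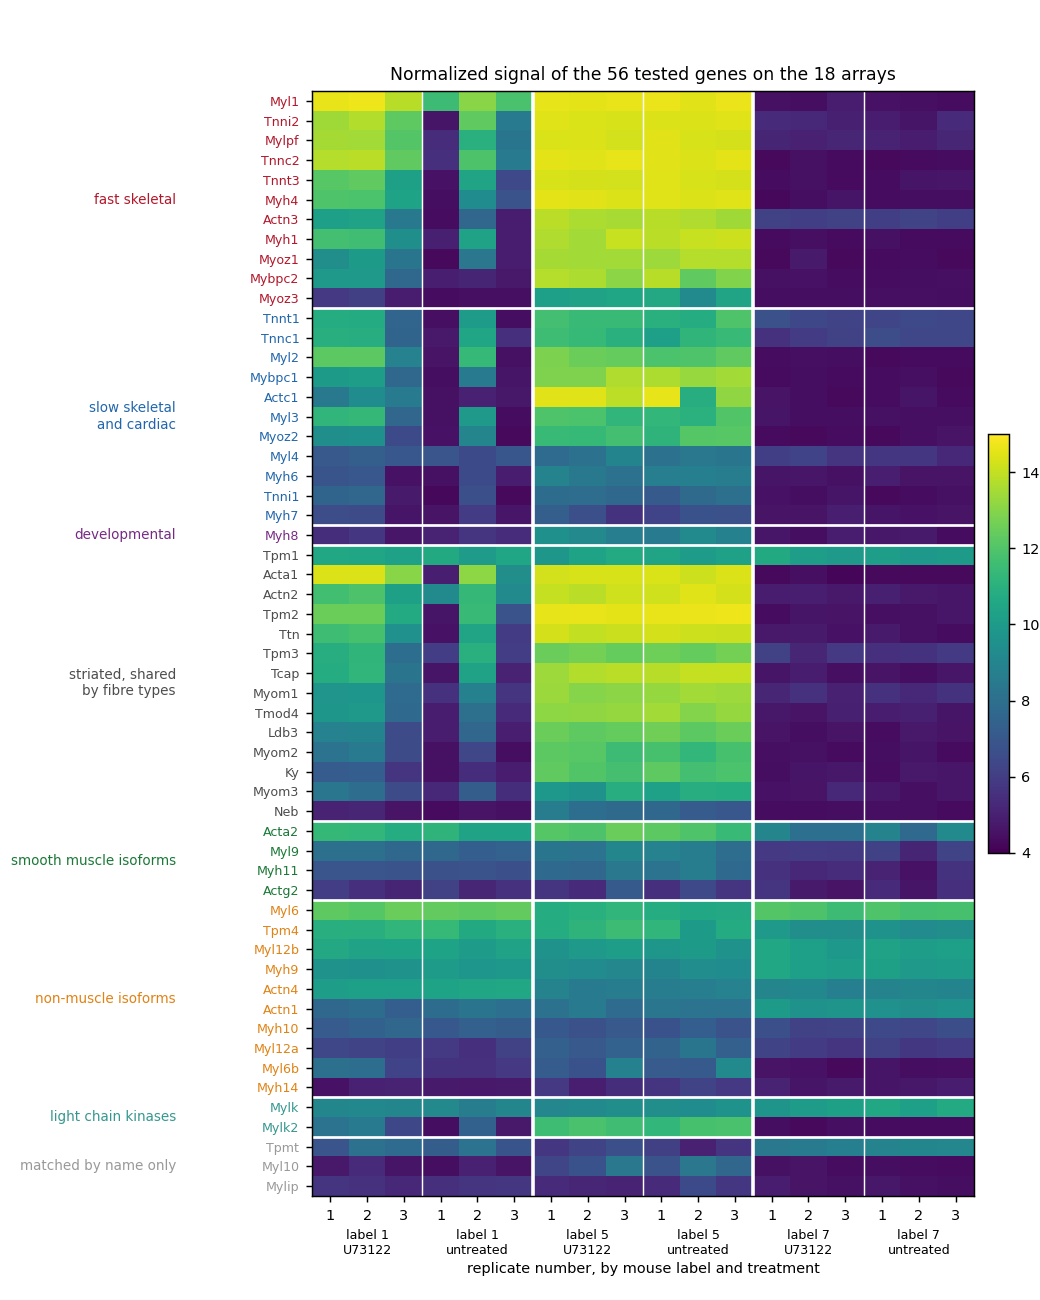
Heat map of the log2 signal (colour, from 4 to 15) of the 56 tested genes (rows, grouped by role) on the 18 arrays (columns, by mouse label and treatment). The rows of fast, slow and shared striated components are bright under label 5, near background under label 7 and uneven under label 1, where untreated replicates 1 and 3 are the dimmest, while most non-muscle rows are lit on all 18 arrays.

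Between labels 5 and 7, 48 of 56 tested members were higher under label 5 and 7 lower at a Benjamini-Hochberg adjusted p under 0.05 in limma. Among all 11406 genes tested, 40.5% were higher and 40% lower in the same comparison, so that 80.5% were called, and a call alone says little here. The sizes differed more: the median difference of the members was 5.74 on the log2 scale, and that of all genes was 0.02. In 46 members every array of label 5 lay above every array of label 7, and in 5 every array lay below, where 30.8% and 30.4% of all genes did so.

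**Figure D2:**
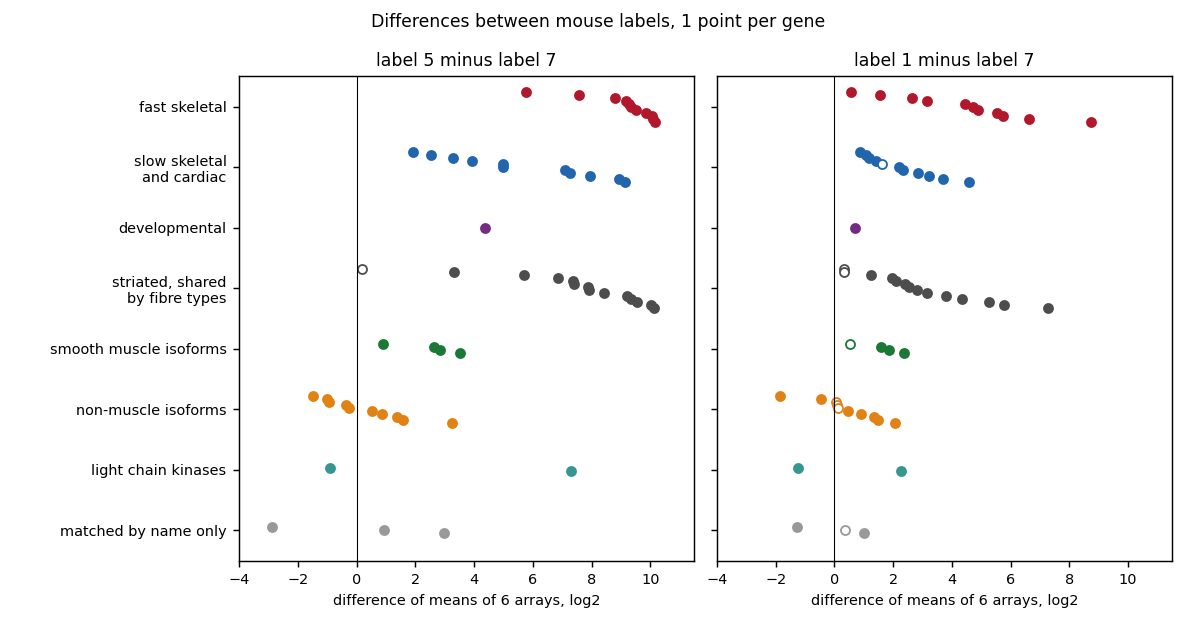
Differences in log2 signal between labels 5 and 7 and between labels 1 and 7, 1 point per tested gene, by role; filled points passed the adjusted p of 0.05 in limma. All 11 fast isoforms are filled and above 0 in both panels, whereas the 10 non-muscle isoforms lie on both sides of 0.

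Fast skeletal isoforms were higher under label 5 in 11 of 11 tested members, with a median difference of 9.34. Myh4 lay between 14.41 and 14.56 under label 5 with a median of 14.46, and between 4.24 and 4.61 under label 7 with a median of 4.40. Its mean was 14.47 ± 0.06 against 4.40 ± 0.12 (SD, n = 6 arrays each), at least 761-fold higher under label 5. For a probe not detected on any array of a label, a fold is a lower bound set by the lowest detected signal, and it is written as "at least" throughout. Myl1 was 14.60 ± 0.07 against 4.52 ± 0.19 (SD, n = 6 each), at least 833-fold. Of the fast troponins, the calcium-binding subunit Tnnc2 was at least 783-fold and the tropomyosin-binding subunit Tnnt3 at least 690-fold higher. Tnni2, the fast inhibitory subunit, was detected on 3 of 6 arrays of label 7 and differed by 9.34 ± 0.78 (SE), and the regulatory light chain Mylpf, detected on 5, by 9.28 ± 0.58. Other thick filament and Z-disc members of fast fibres were also far apart: Myh1, the IIx myosin, was at least 512-fold higher, Myoz1 at least 407-fold, the binding protein Mybpc2 at least 326-fold and Myoz3 at least 39.8-fold. All of these differences had limma adjusted p-values of 4.18e-09 or below.

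Actn3, the α-actinin of fast Z-discs, was the exception among fast isoforms in that its brightest probe was detected on all 6 arrays of label 7, at 6.02 to 6.25, against 13.44 to 13.86 under label 5. The other kept Actn3 probes lay between 4.30 and 4.75 under label 7, at background. The level of Actn3 under label 7 is therefore given for that probe alone.

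Slow skeletal and cardiac isoforms were higher under label 5 in 11 of 11 tested members, with a median difference of 4.98. Actc1 was at least 412-fold higher, with 13.59 ± 1.45 against 4.43 ± 0.14 (SD, n = 6 each), and its SD under label 5 exceeded that of every other striated member there. Mybpc1, the slow binding protein, was at least 339-fold higher, the ventricular and slow regulatory light chain Myl2 at least 171-fold, the myozenin Myoz2 at least 108-fold and the essential light chain Myl3 at least 102-fold. Slow myosin heavy chains were lower on the scale of the array: Myh6 was at least 12.6-fold higher and Myh7, the slow fibre myosin, at least 3.15-fold. Tnni1 was at least 7.16-fold higher, and Tnnt1 and Tnnc1, the slow troponin T and troponin C, differed by 4.97 ± 0.76 and 4.98 ± 0.75 (SE). Tnnt1 and Tnnc1 were detected on all 6 arrays of label 7, at 6.27 to 6.74 and 5.55 to 6.61, in contrast to their fast counterparts. Myl4, an embryonic and atrial essential light chain, lay at 7.86 to 8.97 against 5.23 to 6.21. Of 9 heart markers outside the rule, Nppa, Nppb, Ryr2, Kcnj3, Nkx2-5 and Gata4 were detected on 0 arrays of label 5, whereas Casq2 and Hspb7 were detected on all 6. Myh8, the perinatal myosin and the single developmental member tested, was 8.47 to 9.53 under label 5 and at least 17.1-fold higher than under label 7.

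Of 14 striated components shared by fibre types, 13 were higher under label 5, with a median difference of 7.89. Acta1 was 14.32 ± 0.09 against 4.30 ± 0.09 (SD, n = 6 each), at least 682-fold higher. Tpm2, β-tropomyosin, was at least 850-fold higher. Bounds of genes near the top of the scale under label 5 have no order among themselves. Titin was at least 606-fold higher, the titin cap Tcap at least 482-fold, the thin filament cap Tmod4 at least 312-fold, the Z-disc adaptor Ldb3 at least 186-fold, Ky, a protein needed for muscle upkeep, at least 136-fold and Myom2 at least 120-fold. Neb, the ruler of the thin filament, reached 6.99 to 8.64 under label 5 and was at least 7.01-fold higher. Actn2, the main α-actinin of striated Z-discs, differed by 9.36 ± 0.31, Myom1 by 7.88 ± 0.44 and Myom3 by 5.69 ± 0.34 (SE). Myom1 was detected on all 6 arrays of label 7, but Actn2 and Myom3 on 1 each, so the differences of these 2 genes were measured against signals mostly at background. Tpm1, α-tropomyosin, whose gene also makes smooth muscle and non-muscle forms, was the member that did not pass, with 10.28 ± 0.32 against 10.11 ± 0.30 (SD, n = 6 each, limma adjusted p = 0.326), and its arrays overlapped.

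Tpm3, the slow tropomyosin gene that also makes non-muscle forms, changed direction with the probe. Its brightest probe lay at 12.38 to 12.72 under label 5 and 5.18 to 6.16 under label 7. Another kept probe lay at 8.22 to 8.81 under label 5 and 8.95 to 9.28 under label 7, the reverse order. Of the 6 kept Tpm3 probes, 5 were higher under label 5. Myh7 also had a probe of opposite order, at 5.93 to 6.96 under label 7 and 4.44 to 5.55 on the other arrays. Probes of opposite called direction also occurred in Myl12b and Mylk in this comparison.

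**Figure D3:**
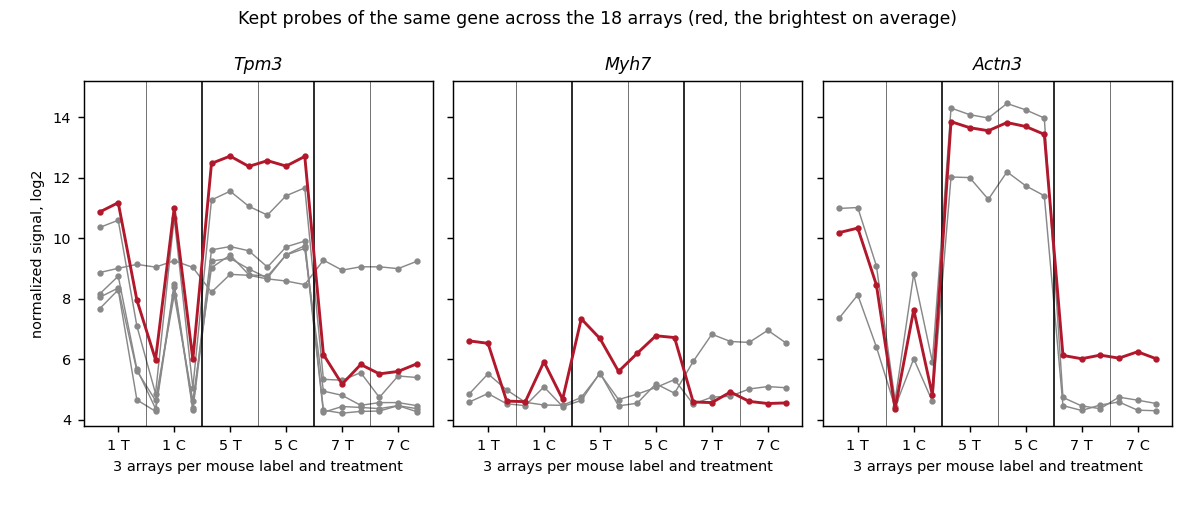
Log2 signal of every kept probe of Tpm3, Myh7 and Actn3 on the 18 arrays, 1 line per probe, with the brightest probe on average in red. The brightest probe of Tpm3 is high under label 5 and low under label 7, while another of its probes stays between 8.22 and 9.28 under both labels and is higher under label 7.

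The smooth muscle and non-muscle relatives differed by less. All 4 smooth muscle members were higher under label 5, with differences of 3.53 ± 0.24 for the actin Acta2, 2.84 ± 0.18 for the myosin Myh11, 2.64 ± 0.20 for the light chain Myl9 and 0.89 ± 0.30 for the actin Actg2 (SE). Non-muscle members were divided 5 to 5, with a median difference of 0.14. Myl6b, a light chain found in slow muscle as well as other tissues, was higher by 3.24, Myl12a by 1.57, Tpm4 by 1.39, Myh14 by 0.88 and Myh10 by 0.53. The differences of the lower members were -1.47 for Actn1, -1.004 for Myl6, -0.93 for the IIA non-muscle myosin Myh9, -0.38 for Myl12b and -0.26 for Actn4. Among the myosin light chain kinases, the skeletal Mylk2 was at least 109-fold higher and the smooth muscle kinase Mylk was lower, at 9.10 to 9.62 against 9.71 to 10.74. Among symbols matched by name only, Tpmt was lower under label 5 with a difference of -2.89 ± 0.25 (SE), Myl10 was at least 5.58-fold higher and Mylip at least 1.55-fold.

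Label 1 was compared with label 7 on the same label 7 arrays, so the 2 comparisons share those values. Here 44 members were higher under label 1 and 4 lower, where 40.3% and 35.3% of all genes were (75.7% called in all), and the median difference was 2.02 against 0.08 for all genes. The 4 lower members were Actn1, Mylk, Myh9 and Tpmt. Myl1 again led, with 13.27 ± 1.36 under label 1 (SD, n = 6) and at least 330-fold, and all 6 arrays, at 11.54 to 14.71, lay above all arrays of label 7. Acta1 was at least 102-fold higher and Tnnc2 at least 68.1-fold, also without overlap. Myh4 and Tnnt3 were at least 18.8-fold and 21.8-fold higher, but their lowest arrays under label 1, 4.42 and 4.52, lay within the range of label 7. Of the 56 members, 20 lay above and 3 below label 7 on every array, where 29.8% and 27% of all genes did. With untreated arrays alone, a setting added after the values were seen, 25 members were called in place of 48. The share of all genes called in that setting is not given here.

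By role, 11 of 11 fast isoforms, 10 of 11 slow or cardiac isoforms, 12 of 14 shared components and 3 of 4 smooth muscle members were higher under label 1 than under label 7. Tnnt1, Neb, Tpm1 and Actg2 did not pass, with adjusted p-values of 0.0635, 0.0665, 0.0759 and 0.127. Of 10 non-muscle members, 5 were higher and 2 lower. Actn4, a non-muscle α-actinin, was 10.32 ± 0.15 under label 1, 8.97 ± 0.12 under label 7 and 8.71 ± 0.15 under label 5 (SD, n = 6 each), so that every array of label 1 lay above those of both other labels. Its difference was 1.35 from label 7 (adjusted p = 9.9e-11) and that of label 5 from label 1 was -1.61 (adjusted p = 2.04e-11).

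Set against label 1, label 5 was higher in 46 members and lower in 6, where 27.8% and 32.9% of all genes were (60.7% called in all), with a median difference of 3.36 against -0.03. The 6 lower members were Actn4, Myl6, Myh9, Myl12b, Myh10 and Tpmt, of which all but Tpmt are non-muscle isoforms. Actc1 differed most, by 6.83 ± 0.40, followed by Mybpc2 at 6.18 ± 0.31 and Ky at 6.17 ± 0.23 (SE). In contrast Myl1 differed by 1.34 ± 0.20 and Acta1 by 2.75 ± 0.83, and in both the brightest arrays of label 1 reached the level of label 5. In 33 of the 56 members every array of label 5 lay above label 1 and in 4 every array lay below, where 17.6% and 20.2% of all genes did. Of 37 tested striated members, 28 had their lowest array of label 5 above their highest array of label 1. The order of the labels was thus 5, 1, 7 by mean for most striated members, but for Tnnt1, Neb and Tpm1 labels 1 and 7 did not differ beyond their spread.

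The treatment was then examined within label 1, where 14 of 56 tested members rose with U73122 and 0 fell (limma adjusted p under 0.05). Of all genes tested, 0.772% rose and 0.114% fell, 0.885% in all. The 25% of members that passed was thus above the background share. The median difference of the members was 1.77 and that of all genes was -0.01, and 49 of the 56 members had a difference above 0. At an unadjusted p under 0.05 there were 37. The share of all genes at that threshold is not given here or below, so counts at an unadjusted p have no background beside them. Many of the members' differences move with the arrays that carry Eif2s3y and with skeletal muscle markers outside the rule, as values by array show. Among the calls, Actc1 and Mybpc2 lay at or near background on all 3 untreated arrays. They were at 4.51, 5.01 and 4.71 and at 4.91, 5.16 and 4.76 on replicates 1, 2 and 3. The part of the Eif2s3y arrays or of the muscle markers in the result was not tested.

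**Figure D4:**
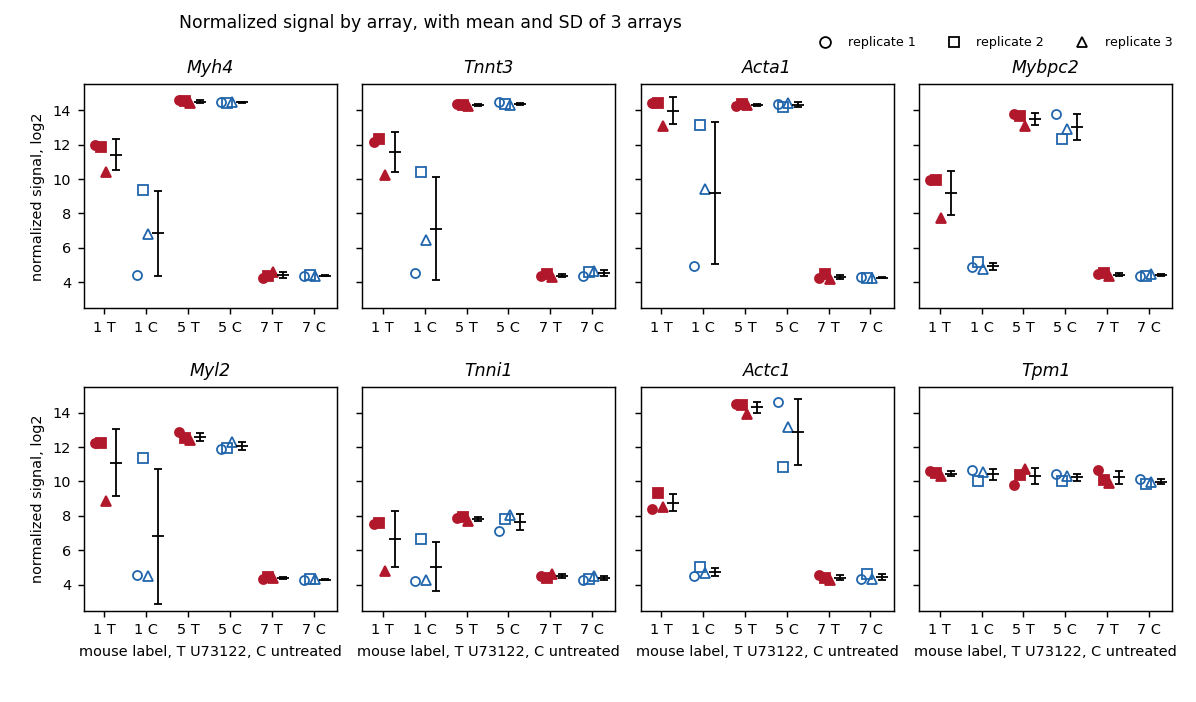
Log2 signal of Myh4, Tnnt3, Acta1, Mybpc2, Myl2, Tnni1, Actc1 and Tpm1 on each array, by mouse label, with treated arrays as filled red and untreated arrays as open blue symbols, the symbol giving the replicate and the bar the mean ± SD of 3 arrays. Under label 1 the untreated values of Myh4 run from 4.42 to 9.36 and the treated values from 10.38 to 11.99, whereas under labels 5 and 7 the values of Myh4 hardly spread.

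Myh4 lay at 11.99, 11.87 and 10.38 on treated replicates 1, 2 and 3 of label 1 and at 4.42, 9.36 and 6.80 on the untreated ones. Every treated array was above every untreated array, although the untreated values ranged from background to a bright signal. The difference was 4.55 ± 0.74 (SE, adjusted p = 0.00599), from 11.41 ± 0.89 treated and 6.86 ± 2.47 untreated (SD, n = 3 each). Tnnt3 was at 12.14, 12.33 and 10.25 treated and 4.52, 10.42 and 6.44 untreated, so that untreated replicate 2 exceeded treated replicate 3. It rose by 4.44 ± 0.91 (SE, adjusted p = 0.0249). Acta1 was at 14.42, 14.41 and 13.05 treated and 4.93, 13.14 and 9.45 untreated, with the same overlap. Its difference of 4.79 ± 1.18 (SE) was larger than that of Tnnt3, but its untreated SD of 4.11 was larger too, and it did not pass (adjusted p = 0.0636).

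Of the 11 tested fast isoforms, 9 rose, and Tnni2 and Myoz3 did not pass. Mybpc2 gave the smallest adjusted p of all members. It lay at 9.92, 9.92 and 7.73 treated against 4.91, 5.16 and 4.76 untreated, close to background on all 3 untreated arrays, and rose by 4.24 ± 0.44 (SE, adjusted p = 0.000286). Myl1 stayed bright throughout, at 14.65, 14.71 and 13.82 treated and 11.54, 13.04 and 11.85 untreated, and rose by 2.25 ± 0.28 (SE, adjusted p = 0.000905). The other Myl1 probes were at 4.83 and 6.45 on untreated replicate 1, so the height of the brightest probe there was not shared by them. Actn3 was at 10.19, 10.34 and 8.46 treated and 4.36, 7.64 and 4.82 untreated, again without overlap, and rose by 4.05 ± 0.59 (SE, adjusted p = 0.00311). Mylpf, at 13.50, 13.47 and 12.04 against 5.38, 10.98 and 8.26, rose by 4.80, the largest difference among the calls (adjusted p = 0.00882). Tnnc2, at 13.77, 13.86 and 12.30 against 5.52, 11.94 and 8.55, rose by 4.64 (adjusted p = 0.0233). In both genes the treated arrays stood above the untreated ones. Myoz1 and Myh1 rose by 3.41 and 4.22 (adjusted p = 0.0211 and 0.0478), with overlap between untreated replicate 2 and treated replicate 3. Tnni2, at 13.42, 13.73 and 12.28 against 4.62, 12.32 and 8.51, differed by 4.66 ± 1.11 (SE) without passing (adjusted p = 0.0562), and Myoz3 was below the detection threshold on all 3 untreated arrays and at least 1.70-fold higher on treated ones (adjusted p = 0.0799).

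Among 11 slow or cardiac isoforms, Actc1 and Mybpc1 rose. Actc1 lay at 8.43, 9.33 and 8.54 treated and at 4.51, 5.01 and 4.71 untreated, so that all 3 treated arrays stood well clear of untreated arrays at or near background, and the difference was 4.03 ± 0.57 (SE, adjusted p = 0.00279). Mybpc1 was at 9.98, 10.16 and 7.67 against 4.39, 8.57 and 4.61 and rose by 3.41 ± 0.78 (SE, adjusted p = 0.0478). None of the other 9 slow genes passed. Myl2 was at 12.21, 12.22 and 8.86 treated against 4.60, 11.35 and 4.49 untreated, with a difference of 4.28 ± 1.23 (SE, adjusted p = 0.126). Myl3 differed by 3.79 ± 1.09 (adjusted p = 0.123), Tnnt1 by 3.39 ± 1.07 (0.176), Tnnc1 by 2.86 ± 1.06 (0.278) and Myoz2 by 2.54 ± 0.92 (0.263). The differences of Tnni1, Myh6, Myh7 and Myl4 were smaller, at 1.59 ± 0.62, 0.85 ± 0.51, 0.85 ± 0.48 and 0.36 ± 0.25 (SE). Tnni1 was detected on 2 of 3 treated arrays and 1 of 3 untreated ones, at 7.54, 7.62 and 4.80 against 4.23, 6.68 and 4.28. In Myl2 and Tnni1 alike, untreated replicate 2 was far above the other untreated arrays and above treated replicate 3.

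Shared components had a median difference of 2.39, and 3 of 14 rose. Myom2, a myomesin of the M-band, was at 8.19, 8.50 and 6.52 treated and 4.49, 6.34 and 4.40 untreated and rose by 2.66 ± 0.46 (SE, adjusted p = 0.00882). Ky, at 7.18, 7.28 and 5.70 against 4.51, 5.42 and 4.82, rose by 1.81 ± 0.33 (SE, adjusted p = 0.0126), and Tmod4 rose by 3.09 ± 0.61 (adjusted p = 0.0204). In Myom2 and Ky the groups did not overlap, and in Tmod4 they did. Ttn, at 11.59, 11.78 and 9.55 against 4.52, 10.43 and 5.95, differed by 4.01 ± 0.94 (SE, adjusted p = 0.053), and Tpm2 by 4.30 ± 1.03 (adjusted p = 0.058). Actn2, Myom1, Myom3, Ldb3, Tcap and Tpm3 had differences between 1.37 and 3.41 that did not pass. Tpm1 lay at 10.58, 10.48 and 10.31 treated and 10.67, 10.03 and 10.53 untreated, a difference of 0.05 ± 0.22 (SE).

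**Figure D5:**
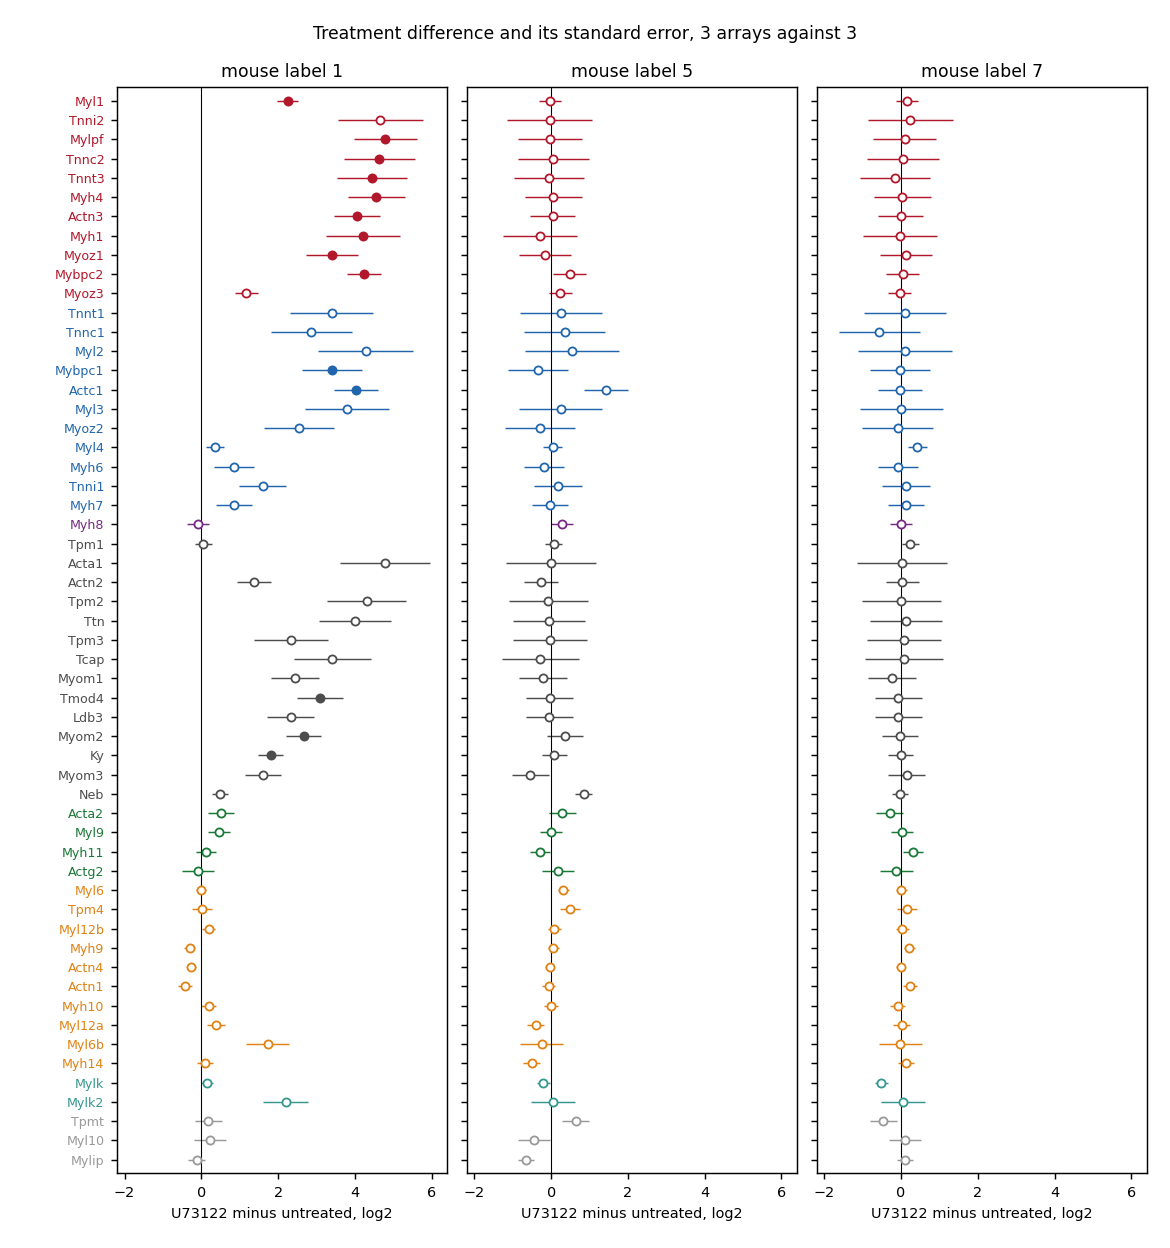
Treated minus untreated difference in log2 signal with its SE for the 56 tested genes (rows, by role) under each mouse label (panels); filled points passed the adjusted p of 0.05 in limma. The 14 filled points are all in the panel of label 1 and all above 0, while most points under labels 5 and 7 lie near 0.

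The smooth muscle members, the non-muscle members and the light chain kinases, with the skeletal Mylk2 among them, showed no call under label 1. The 4 smooth muscle members had a median difference of 0.29, with Acta2 at 11.31, 11.28 and 10.80 treated against 11.15, 10.35 and 10.35 untreated. The 10 non-muscle members had a median of 0.05, and their largest difference was 1.73 ± 0.56 (SE) for Myl6b (adjusted p = 0.189). Myh9 and Actn4 were lower on every treated array, at 9.62, 9.51 and 9.63 against 10.04, 9.79 and 9.85 and at 10.16, 10.21 and 10.20 against 10.37, 10.45 and 10.54, but neither passed (adjusted p = 0.429 and 0.415). Mylk2 differed by 2.20 ± 0.58 (SE, adjusted p = 0.0888) and Mylk by 0.15 ± 0.17. Every treated array lay above every untreated array in 14 of the 56 members and below in 2, where 7.31% and 8.14% of all genes did so. The 14 were Actc1, Actn3, Ky, Mybpc2, Myh4, Myh11, Myl1, Myl4, Myl6b, Mylpf, Myom2, Myoz3, Neb and Tnnc2, and 9 of them were also called.

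The 6 arrays of label 1 held the striated members in nearly the same order for most genes. Among 37 tested striated members, untreated replicate 2 was the highest untreated array in 34, treated replicate 3 was the lowest treated array in 36, and untreated replicate 1 was the lowest of all 6 in 26. Both other treated replicates lay above all untreated arrays in 34 of the 37, where 13.8% of all genes did. Of the 37, 37, 37 and 32 were detected on treated replicates 1, 2 and 3, and 13, 35 and 22 on untreated replicates 1, 2 and 3. The 2 untreated arrays with the fewest detected members, replicates 1 and 3, are those that carried Eif2s3y, and untreated replicate 2 carried Xist as the treated arrays did. Skeletal muscle markers outside the rule moved with these arrays. Their summed log2 signal ran from 13.8 to 15.6 on treated and from 9.29 to 13.6 on untreated arrays. Of these markers 7 of 12 rose, where 0.772% of all genes did, with the creatine kinase Ckm by 4.69 and parvalbumin (Pvalb) by 4.98. All 12 were detected on at least 1 treated array and Casq1 on no untreated one. Brown fat markers had a summed signal of 15.8 to 15.9 on treated and 15.3 to 16.1 on untreated arrays, and 0 of 5 tested changed. White fat markers, at 13.6 to 13.7 in both groups, gave 0 of 4. Of all genes 0.885% were called, so 0 calls in lists this short say little.

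Treated replicate 3 and untreated replicate 2 of label 1 lay between the extremes, and both carried Xist. As a description of this pair, treated replicate 3 was higher in 7 of 11 fast isoforms, with a median difference of 0.43. Untreated replicate 2 was higher in 9 of 11 slow or cardiac isoforms, with a median of -1.92, and in 10 of 14 shared components, with a median of -0.72. Actc1 ran against the other slow members, at 8.54 against 5.01. Tpm3 was at 7.96 against 11.00. Of all 11406 genes, treated replicate 3 was higher in 5819 and untreated replicate 2 in 5581, with a median difference of 0.01. The 7 of 11 fast isoforms is near that share. With 1 array on each side no test was made.

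The count of members called under label 1 depended on single arrays. The share of all genes called moved with it, from 0.885% on all arrays. Without treated replicate 3 or without untreated replicate 2 the count was 31, with 2.13% and 1.46% of all genes called. Without treated replicate 1 it was 4 (0.158% of all genes) and without treated replicate 2 it was 5 (0.298%). Without untreated replicates 1 or 3 it was 9 or 6 (1.28% and 0.263%). Without the 4 untreated arrays that carried Eif2s3y, where 5.48% of all genes were called, 6 members rose, namely Mybpc2 by 4.02, Actc1 by 3.76, Myh4 by 2.05, Actn3 and Mylpf by 2.02 and Myl1 by 1.35. That fit leaves 1 untreated array under labels 1 and 5, whose spread is assumed to be that of the other groups. When the 6 arrays of label 1 were fitted alone, Actc1 passed, with a rise of 4.03 (adjusted p = 0.00464), and it was the 1 call among all genes. Actc1 was called in 28 of 28 settings, Mybpc2, Actn3 and Myl1 in 27, Myh4 in 26, Mylpf in 24 and Myom2 in 23. Myh1 was called in 6 and Mybpc1 in 5. Many of these settings only dropped an array of another label. That leaves the label 1 difference unchanged and moves only its error and adjustment, so such settings are a weak check. The 28 leave out the fit of every kept probe. They also leave out the filter that required detection on all arrays, under which no member was called.

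Under label 5 the same treatment gave 0 calls among the 56 members, where 0.0351% of all genes rose and 0.0351% fell (0.0701% in all), and 5 members had an unadjusted p under 0.05. The median difference was -0.02. Neb was closest, at 8.64, 7.97 and 7.79 treated and 7.67, 7.20 and 6.99 untreated, with a difference of 0.84 ± 0.21 (SE, adjusted p = 0.158). All 3 treated arrays were above the untreated ones. Mylip followed, with a difference of -0.66 ± 0.22 (SE, adjusted p = 0.248), with all treated arrays below. Actc1 was at 14.52, 14.46 and 13.92 treated and 14.60, 10.84 and 13.19 untreated, and its other probe at 13.69, 13.56 and 12.45 against 13.56, 8.58 and 11.61. Both probes were lowest on untreated replicate 2, the difference was 1.43 ± 0.57 (SE) and the adjusted p was 0.346. Myh4 differed little between its arrays, at 14.56, 14.52 and 14.41 against 14.45, 14.41 and 14.47. Myl2 was higher on every treated array, at 12.85, 12.52 and 12.40 against 11.89, 11.95 and 12.32. Myl2 and Neb were the 2 members with all treated arrays above and Mylip the 1 with all below, where 6.54% and 5.98% of all genes did so.

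Signals near the top of the scale limit what can be seen under label 5. The highest normalized value was 14.77, and 5 tested members lay within 0.5 of it on all 6 arrays, where 0.105% of all genes did, so differences between bright arrays may be compressed. Without untreated replicate 1 of label 5, 3 members passed, where 1.03% of all genes did: Actc1 rose by 2.29 (adjusted p = 0.027), Neb rose by 1.04 (0.0376) and Mylip fell by 0.91 (0.0447). Without the untreated arrays that carried Eif2s3y, 4 passed, where 8.13% of all genes did, as Actc1 rose by 3.46 (adjusted p = 5.54e-05), Tpm4 rose by 1.17 (0.0151), Myl12a fell by 0.95 (0.037) and Mylip fell by 1.29 (0.00287). The single untreated array of label 5 then left is replicate 2, on which Actc1 was lowest. When every kept probe was fitted on its own, a Ttn probe rose by 0.69 (adjusted p = 0.043) and a Mybpc1 probe fell by 1.21 (0.0476), and the other probes of these genes did not pass.

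Under label 7, 0 of 56 members were called, where 0.438% of all genes rose and 0.132% fell (0.57% in all), and 1 member had an unadjusted p under 0.05. This was Mylk, the smooth muscle light chain kinase, at 9.71, 10.05 and 10.24 treated and 10.58, 10.23 and 10.74 untreated, with a difference of -0.52 ± 0.17 (SE, adjusted p = 0.226). The groups overlapped by a single array. Since 30 of the 56 members were detected on no array of label 7, a fall in them could not be measured there, whereas a rise could. Of the others, Tnnc1 was lower on every treated array, at 5.55, 5.91 and 6.15 against 6.61, 6.35 and 6.34, without passing. Tpmt was also lower on every treated array, at 8.40, 8.55 and 8.74 against 8.94, 9.05 and 9.09. Myl2 was the 1 member with all treated arrays above, at 4.36, 4.46 and 4.41 against 4.27, 4.33 and 4.32, all at background, and Tnnc1, Tpmt and Myoz3 were the 3 with all below, where 10.3% and 9.47% of all genes did so. Myh9 lay at 10.56, 10.20 and 10.14 against 10.27, 9.93 and 10.04, with overlap.

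Over the 3 labels together, with each label and treatment averaged to 1 profile, 0 of 56 members passed, as did 0% of all genes, and 1 had an unadjusted p under 0.05. The smallest adjusted p of a member was 0.817. Actc1 had the largest ratio of difference to error, 1.81 ± 0.69 (SE, 3 pairs of profiles). The 3 labels were then compared with each other in the size of the treatment difference by a moderated F test. It called 3 members, where 0.377% of all genes were called. At an unadjusted p under 0.05 there were 29 members, a count with no share of all genes beside it. Mybpc2 differed by 4.24 under label 1, 0.48 under label 5 and 0.04 under label 7 (F = 27.7, adjusted p = 0.00566). For Myl1 the differences were 2.25, -0.03 and 0.15 (F = 20.03, adjusted p = 0.023), and for Actn3 they were 4.05, 0.04 and -0.0033 (F = 15.7, adjusted p = 0.0419). Mybpc2 passed in 27 of 27 alternative settings, Myl1 in 19 and Actn3 in 5. The 27 leave out the fit of every kept probe. They also leave out the filter that required detection on all arrays, under which no member was called. Actn3 did not pass with robust variances, with the mean of probes or without the Eif2s3y arrays. Actc1, of slow and cardiac muscle, did not pass (F = 12.95, adjusted p = 0.0724), nor did Myh4 (F = 12.3, adjusted p = 0.0815). With the series matrix values Actc1 passed (adjusted p = 0.0338) and Actn3 did not, and the same held with no further background correction (0.0341 for Actc1). Without untreated replicate 2 of label 1 the count was 30 (1.39% of all genes called) and without treated replicate 3 it was 8 (1.11%). Without the Eif2s3y arrays it was 5, where 7.82% of all genes were called.

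Genes that work with the sarcomere but lie outside the rule were taken from lists. Of 26 tested partners of the Z-disc, M-band and thin filament ends, 2 rose with treatment under label 1, where 0.772% of all genes did: Ankrd23, a titin-bound ankyrin repeat protein, by 2.54 (adjusted p = 0.00587) and Xirp2, an actin-binding repeat protein, by 2.73 (adjusted p = 0.0255). Ankrd23 lay at 9.27, 9.76 and 7.79 treated against 5.91, 7.25 and 6.05 untreated, without overlap. Of the brightest partners, desmin (Des) differed by 1.03 ± 0.41, the chaperone Cryab by 0.92 ± 0.44, Csrp3, a LIM protein of the Z-disc, by 2.70 ± 1.26 and Capzb, the capping protein, by -0.20 ± 0.15 (SE), and none of the 4 passed. Among 13 genes of sarcomere assembly and turnover, 1 rose against that 0.772%: Capn3, the muscle calpain, by 0.95 (adjusted p = 0.0277), from background on all 3 untreated arrays. The heat shock proteins Hspb1, Hspb6 and Hspb8 and the co-chaperone Bag3, the brightest of that list, did not pass. Among 17 muscle transcription factors, 1 rose against the same 0.772%: Myf6, a myogenic factor, by 1.87 (adjusted p = 0.016), at 7.40, 7.47 and 5.97 treated against 4.73, 5.85 and 4.65 untreated.

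Under label 5 none of the partners or assembly genes was called for treatment, and Tbx1 was the 1 transcription factor that fell. Of all genes, 0.0351% rose and 0.0351% fell there. Under label 7 there were 0 calls in all 3 lists, where 0.57% of all genes were called. With shares this low, 0 calls in a list say little about it. Between labels 5 and 7, 26 of 26 partners, 12 of 13 assembly genes and 15 of 17 transcription factors were higher under label 5, where 40.5% of all genes were higher and 40% lower. Mef2d and Prox1 were the 2 transcription factors that were lower, and Hspb8 did not pass, at 12.50 to 12.91 against 12.26 to 12.82. Mef2c, a factor of muscle gene expression, was 11.88 to 12.30 under label 5 against 6.28 to 6.62, and Srf, serum response factor, 8.52 to 9.18 against 6.87 to 7.31, both without overlap. Csrp3 differed from Myh4, Tnnt3 and Acta1 under label 7. It lay at 7.94 to 9.47 on those arrays, where these 3 genes were at background. On the untreated arrays of label 1 it lay at 4.32, 11.02 and 4.53, where the member Myl2 was at 4.60, 11.35 and 4.49.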

How the data were processed

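Total RNA of 18 samples in 6 groups of 3 was measured, 1 array each. The deposited non-normalized table holds a background-subtracted intensity and, per the file headers, a detection p-value for each of 45281 probes. The deposited series matrix, used as an alternative, gives quantile-normalized and uncentred linear intensities (column medians 7.791 to 7.792). The authors' software was not given in the sources used here. All 54 columns matched a sample by name.

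Gene names came from the platform annotation (34885 probes with 1 symbol, 18 with several, 10378 with none), and 34807 probes matched a current gene. Deposited intensities were background corrected and quantile normalized with neqc (offset 16) of limma 3.58.1 in R 4.3.3 and taken to log2. A probe was kept if its detection p was under 0.05 on every array of a group, and the probe with the highest mean stood for each of 11406 genes. Detected probes made up 38.2% to 44.2% per array, and precision is limited by the number of arrays. A mean per group was fitted to all 18 arrays with lmFit and eBayes with a variance trend, two-sided, with Benjamini-Hochberg adjustment over all genes and a threshold of 0.05. The effect over the labels used 6 profiles with label as a term, and its difference between labels a moderated F test. Scripts were tested on simulated data.

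The members, role lists, partner lists and markers were chosen with earlier results of these data known. The text names every called member, up to 6 of the brightest tested genes of each role, Myh4, Tnnt3 and Acta1, and up to 4 genes of each partner list by mean level; others are named where a count is small or a value stood out, after the values were seen. Alternatives were other background corrections, scalings, filters, probe rules, variance models, thresholds and sample sets. Promoter windows came from a RefSeq table and motifs were matched by letters on both strands. Some items are not reported here.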

Additional observations from a re-analysis of the deposited data

Results flagged for a closer look

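The treatment difference of 3 members differed between the mouse labels by the moderated F test itself. Mybpc2 rose by 4.24 on the log2 scale under label 1, with differences of 0.48 under label 5 and 0.04 under label 7 (adjusted p = 0.00566). Myl1 had differences of 2.25, -0.03 and 0.15 (adjusted p = 0.023), and Actn3 of 4.05, 0.04 and -0.0033 (adjusted p = 0.0419). Over 27 alternative settings Mybpc2 passed in 27, Myl1 in 19, Actn3 in 5 and Actc1 in 6. The 27 leave out the fit of every kept probe. They also leave out the filter that required detection on all arrays, under which no member was called. Actc1 took the place of Actn3 with the series matrix values (adjusted p = 0.0338) and with no further background correction (0.0341). Under label 7 Mybpc2 and Myl1 were detected on 0 of 6 arrays, and under label 5 Myl1 lay at 14.50 to 14.69, near the top of the scale at 14.77. A fall of these genes could therefore not be measured under label 7, whereas a rise could, and under label 5 a rise of Myl1 may have been compressed. Among untreated arrays of label 1, Myl1 and Actn3 were lowest on those that carried Eif2s3y. They lay there at 11.54 and 11.85 and at 4.36 and 4.82, against 13.04 and 7.64 on untreated replicate 2. Mybpc2 was near background on all 3 untreated arrays, at 4.91, 5.16 and 4.76. Without the untreated arrays that carried Eif2s3y, the label 1 differences were 4.02 for Mybpc2, 2.02 for Actn3 and 1.35 for Myl1. That fit leaves 1 untreated array under labels 1 and 5. The part of these arrays in the result was not tested.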

How the results depend on the processing

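Counts of called members moved by over 1.5 times as follows. Under label 1 the 14 treatment calls became 7 at an adjusted p under 0.01, 7 with robust variances, 6 without the untreated arrays that carry Eif2s3y, 1 with the 6 arrays of the label alone and 0 of 13 tested when detection at p under 0.01 on all arrays was required, and lay between 4 and 31 when single arrays were left out. Under label 5 the 0 calls became 2 with every kept probe as a feature and 4 without the Eif2s3y arrays, and lay between 0 and 3 over single arrays. The 3 members whose effect differed between labels became 0 under the strict detection filter, 1 at an adjusted p under 0.01 and 5 without the Eif2s3y arrays, and lay between 1 and 30. Between labels the strict filter left 13 members and gave 12 calls in place of 55 (labels 5 and 7), 9 in place of 48 (labels 1 and 7) and 11 in place of 52 (labels 5 and 1), and untreated arrays alone, a setting chosen after seeing the data, gave 25 for labels 1 and 7. Leaving out single arrays gave 55 to 55, 46 to 50 and 49 to 52 there, and 0 to 0 under label 7 and over all labels. The replicate block gave 17, 0 and 0 treatment calls under labels 1, 5 and 7, 55, 49 and 52 between labels, 3 for the effect between labels and 0 overall. For the strict filter, untreated arrays alone and the replicate block, the share of all genes called is not given here. Replicate numbers were not used as pairs in the main fit. With group means taken out, same-numbered treated and untreated arrays of a label correlated at -0.04 to 0.28. Among the 3 arrays of the other treatment, 13 of 18 arrays correlated best with their own number, so a pairing was not excluded. The replicate block shares its terms over the labels, and pairs within a label were not fitted. Tpm3 reversed where another of its probes was the brightest or the one kept: the differences for labels 5 and 7, 1 and 7, and 5 and 1, which were 6.85, 3.14 and 3.71, became -0.529, -0.0376 and -0.491 with no further background correction, -0.530, -0.0377 and -0.492 with the series matrix values and -0.510, -0.0365 and -0.474 under the strict filter. Tpm1 between labels 5 and 7, at 0.17, became -0.365 under 75th percentile scaling and -0.387 with the mean of the gene's probes. For labels 1 and 7, 75th percentile scaling gave -0.0981 for Myl6 and -0.459 for Myl12b. With the mean of probes Myl12b gave 0.368 between labels 5 and 7 and 0.0582 between labels 5 and 1, and with untreated arrays alone Actn3 gave -0.492 between labels 1 and 7. The cause of these reversals was not tested, apart from the change of probe for Tpm3. Over all named genes and settings, 8830 comparisons kept direction and call or moved little, 384 moved, 72 became and 175 ceased to be called. Signals at background and at the top of the scale bound what the arrays can show.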
